A study of Mus musculus with 8 samples.

Results

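Genes of the extracellular matrix and of cardiac fibroblasts were examined in adult mouse ventricular cardiomyocytes kept in medium that CCR2+ cardiac macrophages had conditioned. The set held every measured gene for a collagen chain (17 genes) or a laminin chain (6 genes, with 1 further measured laminin chain left out by the rule), together with 24 matrix proteins and fibroblast markers listed by name. Of those 24 genes, 23 were in the gene table and elastin (Eln) had no row, which gave 46 of 11367 genes. The set was defined by gene name, although it was chosen with earlier results of these data known. Levels are FPKM (fragments per kilobase, scaled to the mapped fragments of the library), which take gene length into account.

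RNA sequencing had been performed on 8 libraries, all from ventricular cardiomyocytes of adult C57BL/6 mice cultured for 24 hours in M199 with blebbistatin (a myosin inhibitor), ITS (insulin, transferrin and selenium) and CD lipid. The 4 control libraries came from cells in normal growth medium. The other 4 came from cells in medium in which GFP+ CCR2+ macrophages, sorted from hearts of Ccr2gfp/+ mice 4 weeks after transverse aortic constriction (TAC, a surgical model of pressure overload), had spent 24 hours. By the study's methods the mice were males of about 8 to 12 weeks, and the labels do not say that the libraries came from separate animals or isolations, so that the p-values rest on the spread among these 8 libraries and that spread may be technical. The macrophages were sorted into M199 with fetal bovine serum, whereas no serum is named for the control medium, and an effect of macrophage products and one of serum cannot be told apart.

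The cardiac matrix is made mainly by fibroblasts. Fibrillar collagens form the load-bearing fibres, small leucine-rich proteoglycans such as decorin bind to those fibres and govern their assembly, and a basement membrane of type IV collagen, laminins, nidogens and perlecan surrounds every cardiomyocyte and lines every capillary. Matricellular proteins such as tenascin-C and thrombospondin-1 carry signals in remodeling tissue rather than load. Isolated adult cardiomyocytes are usually accompanied by some fibroblasts and endothelial cells, and the markers of these cells can be read in the same RNA.

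Of the lists of cell type markers examined, that of cardiomyocytes had the highest summed level in every library, and markers of other cells were present. The summed level of 9 cardiomyocyte markers lay between 2676 and 8249 FPKM in the 8 libraries, whereas that of the fibroblast markers Dcn, Col1a1 and Pdgfra lay between 6.96 and 28.6 FPKM. Endothelial markers summed to 131 to 521 FPKM, mural markers to 98.1 to 199 FPKM and macrophage markers to 24.4 to 182 FPKM. The lists differ in length and in the abundance of their genes, so that these sums do not give the share of each cell type. Conditioned-medium replicate 4 stood apart from the rest, with 63.04% of its summed FPKM from 13 mitochondrial genes (30.19% to 40.67% in the other libraries) and the lowest cardiomyocyte sum. Control replicates 2 and 4 were low for most matrix genes and for markers of other non-myocytes. The main counts below are therefore given with and without these 3 libraries, a choice made after the data had been seen.

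Among the 46 genes, Dcn rose and none fell (limma, adjusted p under 0.05). Across all 11367 genes, 0.554% rose and 0% fell by this test. Without control replicate 1, 4 of the 46 genes rose (Dcn, Lum, Pdgfra and Col23a1), against 0.968% of all genes. When any other 1 library was left out, 0 to 2 of the 46 genes rose, beside 31 to 86 of all genes. At an unadjusted p under 0.05, 8 of the 46 genes were higher in conditioned medium (Dcn, Pdpn, Pdgfra, Lum, Tnc, Col23a1, Col18a1 and Nid2) and 0 were lower, against 8.78% and 0.845% of all genes. Without control replicate 1 the number that was higher was 23, against 15.8% of all genes, and with array weights it was 26, against 24.7%. The log2 fold change (conditioned minus control, on log2(FPKM + 1)) was above 0 for 41 of 46 genes, against 53.9% of all genes, and its median was 0.37, against 0.02 over all genes. In 6 of the 46 genes (13.0%) all 4 conditioned-medium libraries lay above all 4 control libraries, against 5.08% of all genes, and these were Dcn, Lum, Pdgfra, Pdpn, Tnc and Col23a1. In 0 of the 46 did all 4 lie below, against 1.46% of all genes. Without control replicate 1 the conditioned-medium libraries lay above all remaining controls in 14 of the 46 genes (30.4%), against 16.2% of all genes. Of the 46 genes, 3 (Col23a1, Fbln5 and Mfap5) met the table's minimum of 0.5 FPKM through the conditioned-medium mean alone and 0 through the control mean alone. Col23a1 is among the genes named in the counts above. It gives them no support, because a low level in conditioned medium would have kept it out of the table. Without these 3 genes, 38 of 43 were above 0 and the median remained at 0.37. In bulk RNA, a change in the number of fibroblasts or other source cells and a change in RNA per cell cannot be told apart.

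**Figure D1:**
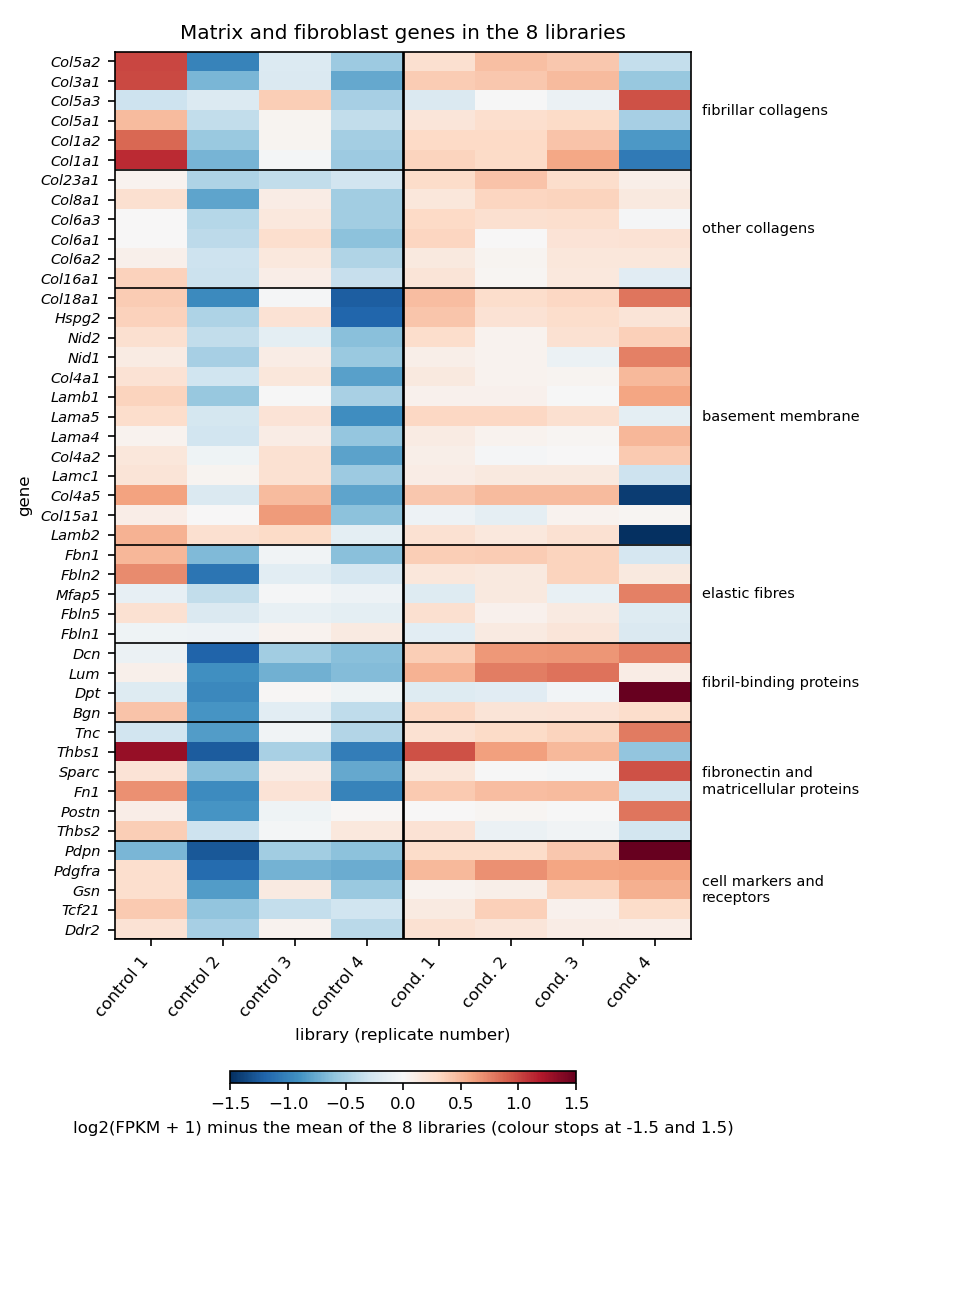
Heat map of 45 of the 46 genes (rows, by role) in the 8 libraries (columns, 4 control and 4 conditioned medium). Colour gives log2(FPKM + 1) minus the gene's mean over the 8 libraries and is clipped at both ends of the scale. The columns of control 2 and control 4 are mostly blue, that of control 1 is mostly red, and conditioned-medium replicate 4 holds both extremes, with Pdpn and Dpt at the top and Lamb2 and Col4a5 at the bottom.

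Dcn encodes decorin, a small leucine-rich proteoglycan that coats collagen fibrils and is a common marker of fibroblasts. It measured 7.08, 2.72, 4.96 and 4.58 FPKM in control replicates 1 to 4 and 10.1, 12.5, 12.6 and 13.5 FPKM in conditioned-medium replicates 1 to 4. The lowest conditioned-medium library exceeded the highest control. The mean was 4.83 ± 1.79 FPKM in control and 12.2 ± 1.43 FPKM in conditioned medium (SD, n = 4 each), a log2 fold change of 1.22 (SE 0.23, 95% confidence interval 0.73 to 1.72, limma adjusted p = 0.0336). By log2 fold change Dcn ranked 57 among all genes. Its direction held under all 19 alternatives (log2 fold change 0.87 to 1.40), but its call did not. The adjusted p was above 0.05 in 16 of the 19. These included an F test for each gene, under which 0 of all genes passed, and the removal of any 1 library other than control replicate 1. It was 0.101, 0.0955 and 0.131 without control replicate 2, 3 or 4, 0.0738, 0.111, 0.113 and 0.0563 without conditioned-medium replicate 1, 2, 3 or 4, and 0.474 without control replicates 2 and 4 together. Without control replicate 1 it was 0.0158.

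Lum encodes lumican, a proteoglycan of the same family that also regulates fibril assembly. Its gene lies next to Dcn on chromosome 10 (GRCm38, Dcn at 97479609-97518143 and Lum at 97565128-97572703, both on the plus strand), 46984 bases apart, with no other measured gene starting between them. Lum measured 4.28, 1.63, 2.03 and 2.19 FPKM in control and 6.17, 7.49, 7.76 and 4.40 FPKM in conditioned medium. The groups did not overlap, although conditioned-medium replicate 4 barely exceeded control replicate 1. The means were 2.53 ± 1.19 and 6.45 ± 1.53 FPKM (SD, n = 4 each), with a log2 fold change of 1.11 (SE 0.24, adjusted p = 0.0921). Lum passed the test under 6 of 19 alternatives, which were equal totals over nuclear-encoded genes (0.0288), median-of-ratios scaling (0.0242), quantile normalization (0.0358), array weights (2.03e-04) and the removal of control replicate 1 (0.0180) or of conditioned-medium replicate 4 (0.0396). The ratio of Lum to Dcn ranged from 0.409 to 0.604 in control and from 0.327 to 0.615 in conditioned medium, and these ranges overlapped.

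The other fibril-binding proteins moved less. Bgn encodes biglycan, a proteoglycan closely related to decorin, and was the most abundant of the group. It measured 36.4, 14.0, 23.9 and 20.3 FPKM in control and 33.5, 30.8, 30.9 and 32.4 FPKM in conditioned medium. Control replicate 1 lay above all conditioned-medium libraries, and the conditioned-medium libraries were close together. The log2 fold change of Bgn was 0.49 (SE 0.24, adjusted p = 0.563). Dpt, for dermatopontin, which binds decorin and collagen, lay between 3.82 and 4.37 FPKM in conditioned-medium replicates 1 to 3, within its control range of 1.83 to 4.58 FPKM, and at 15.7 FPKM in replicate 4.

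**Figure D2:**
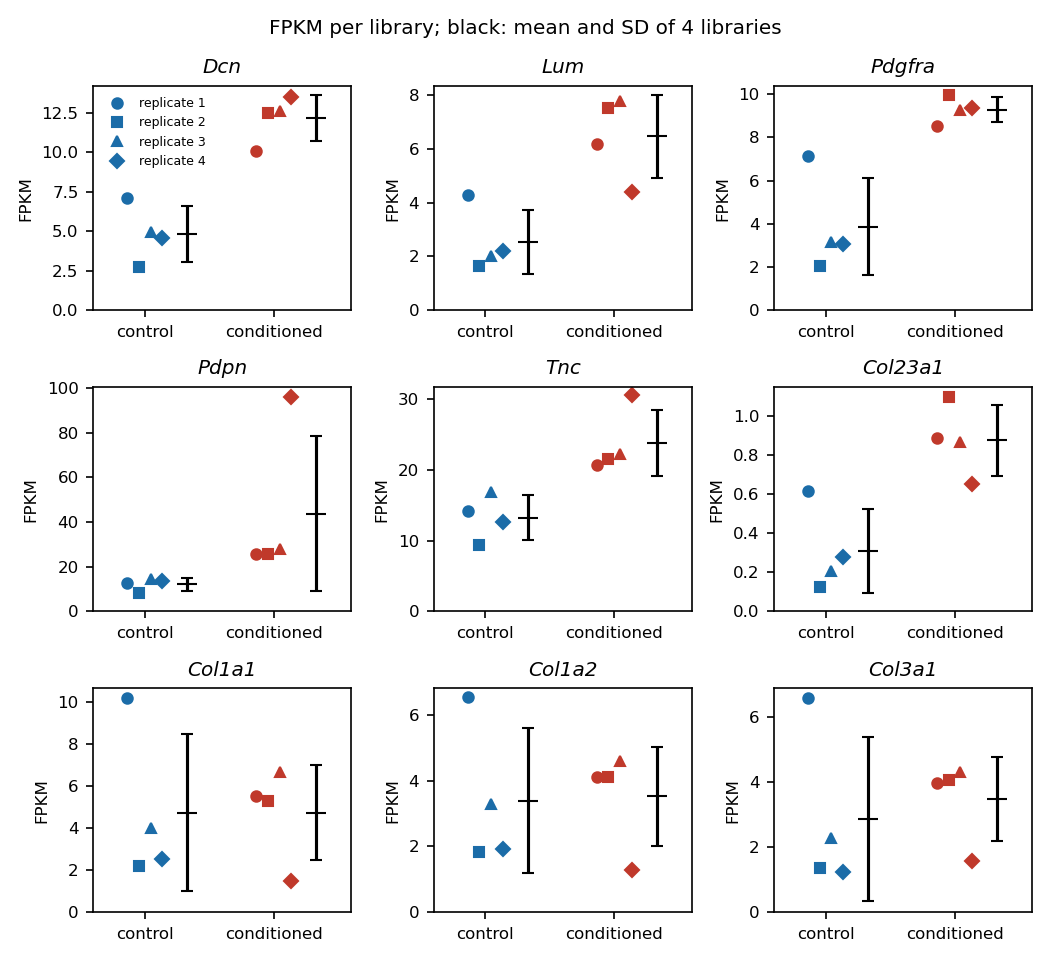
FPKM (vertical axis, linear, from 0) of 9 genes in control and conditioned medium, 1 point per library with its shape giving the replicate number, and the mean with SD of 4 libraries in black. In Dcn, Lum, Pdgfra, Pdpn, Tnc and Col23a1 every conditioned-medium point lies above every control point, whereas the points of Col1a1, Col1a2 and Col3a1 overlap, with control replicate 1 on top and conditioned-medium replicate 4 at or near the bottom.

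Pdgfra encodes the receptor for platelet-derived growth factor that marks resident cardiac fibroblasts. It measured 7.13, 2.05, 3.17 and 3.07 FPKM in control and 8.54, 9.95, 9.26 and 9.33 FPKM in conditioned medium. The conditioned-medium values were tightly grouped, and of the controls only replicate 1 came near them. The means were 3.85 ± 2.24 and 9.27 ± 0.578 FPKM (SD, n = 4 each), with a log2 fold change of 1.18 (SE 0.26, 95% confidence interval 0.62 to 1.74, limma adjusted p = 0.10). Without control replicate 1 the adjusted p was 0.00840, and with array weights 5.97e-04. Its ratio to Dcn was 0.639 to 1.01 in control and 0.693 to 0.842 in conditioned medium.

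Pdpn encodes podoplanin, a membrane glycoprotein of lymphatic endothelium and mesothelium that activated fibroblasts also carry. With all libraries it had the largest difference of the 46 genes, which rested on conditioned-medium replicate 4. Pdpn measured 12.7, 8.08, 14.3 and 13.4 FPKM in control and 25.5, 25.7, 28.0 and 96.0 FPKM in conditioned medium. Conditioned-medium replicates 1 to 3 agreed closely, and replicate 4 was far above them. The means were 12.1 ± 2.77 and 43.8 ± 34.8 FPKM (SD, n = 4 each), and the log2 fold change was 1.55 (SE 0.38, adjusted p = 0.157). Without conditioned-medium replicate 4 the log2 fold change was 1.09, below those of Lum (1.25), Dcn (1.18) and Pdgfra (1.18) in the same libraries, and it passed the test (adjusted p = 0.0220). Without that library and control replicates 2 and 4, it was 0.92 (adjusted p = 0.0217).

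The remaining cell markers did not pass the test. Tcf21, a transcription factor required for cardiac fibroblasts to form, was low, at 0.395 to 1.76 FPKM in control and 1.20 to 1.69 FPKM in conditioned medium. Ddr2, a collagen receptor of fibroblasts, lay between 2.75 and 5.13 FPKM in control and between 4.66 and 5.19 FPKM in conditioned medium. Gsn encodes gelsolin, an actin-severing protein. It measured 14.2, 6.11, 13.0 and 7.66 FPKM in control and 12.2, 12.5, 15.1 and 17.4 FPKM in conditioned medium, with a log2 fold change of 0.50 (SE 0.25, adjusted p = 0.567). The controls fell into a higher and a lower pair, and the higher pair overlapped conditioned medium.

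Promoter sequences (RefSeq, GRCm38.p6, 250 bases before the start to 50 bases after it) were available for 35 of the 46 genes. Those of Pdgfra, Pdpn and Tnc are printed because these genes had groups that did not overlap and a level well above 1 FPKM. Each is written 5′ to 3′ on the strand of the gene, with capitals for the 50 bases from the start on. Pdgfra is at chr5:75152001-75152300 (plus strand, where the RefSeq start lies 41 bases from that of the gene table), Pdpn at chr4:143299515-143299814 (minus strand) and Tnc at chr4:64046966-64047265 (minus strand).
Pdgfra: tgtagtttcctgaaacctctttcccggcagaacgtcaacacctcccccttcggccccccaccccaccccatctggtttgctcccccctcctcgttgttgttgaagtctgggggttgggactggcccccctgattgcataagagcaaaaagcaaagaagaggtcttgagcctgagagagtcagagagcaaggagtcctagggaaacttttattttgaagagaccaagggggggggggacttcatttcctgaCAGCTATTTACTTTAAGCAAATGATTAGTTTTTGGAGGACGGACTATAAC
Pdpn: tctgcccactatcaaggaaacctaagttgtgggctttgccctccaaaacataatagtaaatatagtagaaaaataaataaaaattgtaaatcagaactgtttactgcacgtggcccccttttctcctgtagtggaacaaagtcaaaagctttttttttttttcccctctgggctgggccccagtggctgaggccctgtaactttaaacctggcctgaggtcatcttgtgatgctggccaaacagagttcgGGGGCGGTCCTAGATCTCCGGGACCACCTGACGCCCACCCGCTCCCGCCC
Tnc: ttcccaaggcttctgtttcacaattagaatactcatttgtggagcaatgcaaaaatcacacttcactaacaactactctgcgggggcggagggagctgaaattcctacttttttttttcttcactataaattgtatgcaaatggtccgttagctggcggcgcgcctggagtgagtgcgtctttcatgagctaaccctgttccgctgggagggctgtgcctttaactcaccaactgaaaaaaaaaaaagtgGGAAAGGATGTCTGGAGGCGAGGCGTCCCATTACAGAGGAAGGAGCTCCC

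These windows were searched on both strands for 2 short motifs, a cytokine response element and a core promoter element. The gamma-activated site (TTCNNNGAA, which reads the same on both strands) was found in 2 of the 35 windows (Dpt and Lamb2) and in 8.3% of 32851 windows of all genes. The TATA box (TATAAA) was found in 6 of 35 (Col3a1, Ddr2, Dpt, Postn, Thbs2 and Tnc) and in 13.6% of all. In Postn it began at position -26 from the start, and in the Tnc sequence above at -126. A match describes the letters only.

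No fibrillar collagen, the class that makes up the bulk of fibrotic scar, passed the test in either direction. All 6 had a log2 fold change above 0 (0.07 to 0.37), and 0 reached an unadjusted p under 0.05. With array weights, which give less weight to libraries that stand apart, Col3a1 (0.74, adjusted p = 0.0381) and Col5a2 (0.80, adjusted p = 0.0476) passed. Col1a1, which encodes the alpha-1 chain of type I collagen, measured 10.2, 2.19, 4.03 and 2.54 FPKM in control and 5.52, 5.28, 6.68 and 1.48 FPKM in conditioned medium. The highest and the lowest values thus belonged to control replicate 1 and conditioned-medium replicate 4, and the groups overlapped. The means were 4.75 ± 3.74 and 4.74 ± 2.26 FPKM (SD, n = 4 each), with a log2 fold change of 0.07 (SE 0.42, 95% confidence interval -0.85 to 0.99, adjusted p = 0.964). A rise of up to 0.99 lies within this interval, so that a rise of that size in Col1a1 is not excluded by these libraries. Without control replicates 2 and 4 the log2 fold change of Col1a1 was -0.51.

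Col5a2, a chain of the type V collagen that nucleates fibrils, had the highest mean gene FPKM of the fibrillar collagens (5.32). It measured 10.6, 1.89, 4.04 and 2.96 FPKM in control and 5.87, 6.93, 6.68 and 3.53 FPKM in conditioned medium, with a log2 fold change of 0.37 (SE 0.36, adjusted p = 0.777). Col1a2, the partner chain of Col1a1, lay between 1.82 and 6.54 FPKM in control and between 1.29 and 4.59 FPKM in conditioned medium, and Col3a1 (type III collagen) between 1.25 and 6.57 FPKM and between 1.57 and 4.32 FPKM. Control replicate 1 was the highest library for all 4 of these genes. On gene FPKM, the ratio of Col1a1 to Col1a2 stayed between 1.15 and 1.56 in all 8 libraries. Col5a1 and Col5a3 lay between 1.24 and 6.42 FPKM.

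Ratios of Dcn, Lum and Pdgfra to Col1a1 and Col3a1 were also taken, although bulk RNA does not show that these transcripts come from the same cells. The ratio of Dcn to Col1a1 was 0.691 to 1.80 in control and 1.84, 2.37, 1.89 and 9.12 in conditioned medium, so that the ranges nearly met. Those of Lum to Col1a1 (0.418 to 0.862 and 1.12 to 2.98) and of Pdgfra to Col1a1 (0.696 to 1.21 and 1.39 to 6.31) did not overlap either. Over Col3a1, the ranges of Dcn (1.08 to 3.67 and 2.55 to 8.61), Lum (0.651 to 1.76 and 1.55 to 2.81) and Pdgfra (1.09 to 2.46 and 2.14 to 5.96) overlapped. The pairs were chosen after the values had been seen, and no test was made. Dcn, Lum and Pdgfra are genes whose groups did not overlap, so that separate ranges over Col1a1 may follow in part from that choice.

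Of the other collagens, Col23a1 stood out. It encodes a membrane-bound collagen and was close to the lower limit of the table, at 0.617, 0.127, 0.208 and 0.279 FPKM in control and 0.890, 1.10, 0.866 and 0.655 FPKM in conditioned medium. The groups did not overlap, with conditioned-medium replicate 4 just above control replicate 1. The log2 fold change was 0.53 (SE 0.14, adjusted p = 0.205), which understates the ratio of the means (2.85) because 1 is added to values this low. It is listed only because of its conditioned-medium mean (0.877 FPKM, against 0.308 FPKM in control). Without control replicate 1 the adjusted p was 0.0442.

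Type VI collagen, which forms beaded filaments around cells, and type VIII collagen, a product of vessel walls and fibroblasts, differed less. Col6a1 measured 7.20, 5.26, 8.78 and 4.34 FPKM in control and 9.25, 7.20, 8.47 and 8.49 FPKM in conditioned medium, with a log2 fold change of 0.37 (SE 0.20, adjusted p = 0.605). Its partners Col6a2 and Col6a3 ranged from 2.01 to 3.65 FPKM and from 2.61 to 5.37 FPKM. Col8a1 measured 9.70, 4.23, 8.79 and 5.33 FPKM in control and 9.22, 10.3, 10.4 and 9.04 FPKM in conditioned medium, with a log2 fold change of 0.48 (SE 0.23, adjusted p = 0.546). In each of these genes control replicates 2 and 4 were the lowest libraries. Col16a1 lay between 0.684 and 1.73 FPKM.

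The basement membrane group, with 14 genes, held most of the abundant members, and none of it passed the test. The log2 fold change was above 0 for 11 of 14, with a median of 0.36 and a range of -0.45 to 0.92. Col4a1 and Col4a2, the chains of the main type IV collagen network, start from opposite strands of chromosome 8 (Col4a1 at 11198423-11312826 on the minus strand and Col4a2 at 11312805-11449287 on the plus strand), and the first 22 bases of the genes overlap. Their promoter windows are printed because both genes start from this same stretch. Capitals mark the 78 bases that both windows hold (chr8:11312777-11312854, GC content 73.1%), with each written 5′ to 3′ on the strand of its gene, at chr8:11312777-11313076 for Col4a1 and chr8:11312555-11312854 for Col4a2.
Col4a1: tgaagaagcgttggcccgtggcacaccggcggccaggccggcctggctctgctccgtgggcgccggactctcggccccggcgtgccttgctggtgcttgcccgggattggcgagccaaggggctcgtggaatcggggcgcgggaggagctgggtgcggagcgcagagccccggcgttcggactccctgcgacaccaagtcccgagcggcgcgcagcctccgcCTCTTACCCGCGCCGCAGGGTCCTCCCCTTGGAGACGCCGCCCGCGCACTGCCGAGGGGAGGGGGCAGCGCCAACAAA
Col4a2: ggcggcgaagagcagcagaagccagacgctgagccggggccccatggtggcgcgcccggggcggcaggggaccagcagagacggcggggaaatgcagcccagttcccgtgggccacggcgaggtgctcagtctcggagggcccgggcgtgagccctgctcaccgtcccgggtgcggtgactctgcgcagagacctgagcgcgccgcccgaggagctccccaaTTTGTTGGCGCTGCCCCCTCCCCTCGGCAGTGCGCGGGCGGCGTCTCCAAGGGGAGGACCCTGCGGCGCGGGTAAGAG

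Col4a1 measured 101, 70.2, 97.6 and 48.7 FPKM in control and 95.7, 90.1, 89.5 and 122 FPKM in conditioned medium, with a log2 fold change of 0.36 (SE 0.24, adjusted p = 0.690). Col4a2 measured 89.4, 75.8, 93.2 and 45.0 FPKM in control and 84.2, 78.5, 79.7 and 104 FPKM in conditioned medium, with a log2 fold change of 0.23 (SE 0.24, adjusted p = 0.788). Both genes were lowest in control replicate 4 and highest in conditioned-medium replicate 4, and their ratio stayed between 0.927 and 1.18 in all libraries. Both were lower in conditioned-medium replicates 1 to 3 than in control replicates 1 and 3.

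Col18a1, whose product is the precursor of endostatin, differed most within the group. It measured 10.2, 3.44, 7.55 and 2.66 FPKM in control and 10.9, 9.32, 9.73 and 14.0 FPKM in conditioned medium. Control replicate 1 lay within the conditioned-medium range, and replicates 2 and 4 were far below. The means were 5.97 ± 3.56 and 11.0 ± 2.11 FPKM (SD, n = 4 each), with a log2 fold change of 0.92 (SE 0.32, adjusted p = 0.406). Without control replicates 2 and 4 it was 0.27.

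Nid2 encodes nidogen-2, which links laminin to type IV collagen. It measured 2.53, 1.31, 1.69 and 0.936 FPKM in control and 2.58, 2.10, 2.50 and 2.83 FPKM in conditioned medium, with a log2 fold change of 0.45 (SE 0.19, adjusted p = 0.479). Control replicate 1 again overlapped. Its relative Nid1 was lowest in control replicate 4 (7.09 FPKM) and highest in conditioned-medium replicate 4 (19.2 FPKM). Hspg2, for the heparan sulfate proteoglycan perlecan, ranged from 11.1 to 34.2 FPKM and from 30.5 to 35.7 FPKM.

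Among the laminins, Lamb2 had a log2 fold change that was the lowest of the 46 genes, although its level was among the highest. It encodes the beta-2 chain found around muscle fibres and vessels, and measured 54.8, 44.9, 46.4 and 34.3 FPKM in control and 44.5, 42.6, 44.7 and 12.6 FPKM in conditioned medium. Only conditioned-medium replicate 4 was below the control range. For Lamb2 the log2 fold change was -0.45 (SE 0.36, 95% confidence interval -1.23 to 0.33, adjusted p = 0.729), and without that library it was -0.02. Lamc1, the gamma-1 chain shared by most laminins, was similarly abundant, at 29.3 to 50.8 FPKM in control and 34.4 to 47.6 FPKM in conditioned medium. Lamb1, Lama4 and Lama5 lay between 2.73 and 9.96 FPKM over the 8 libraries.

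Col15a1, which encodes a collagen of the outer basement membrane zone, measured 8.55, 7.92, 12.9 and 4.79 FPKM in control and 7.46, 7.08, 8.26 and 8.09 FPKM in conditioned medium, with a log2 fold change of -0.06 (SE 0.24, adjusted p = 0.942). The control values enclosed all conditioned-medium values. Col4a5, a chain of a second type IV network, lay outside its control range (3.24 to 10.2 FPKM) in conditioned-medium replicate 4 alone, at 1.74 FPKM.

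**Figure D3:**
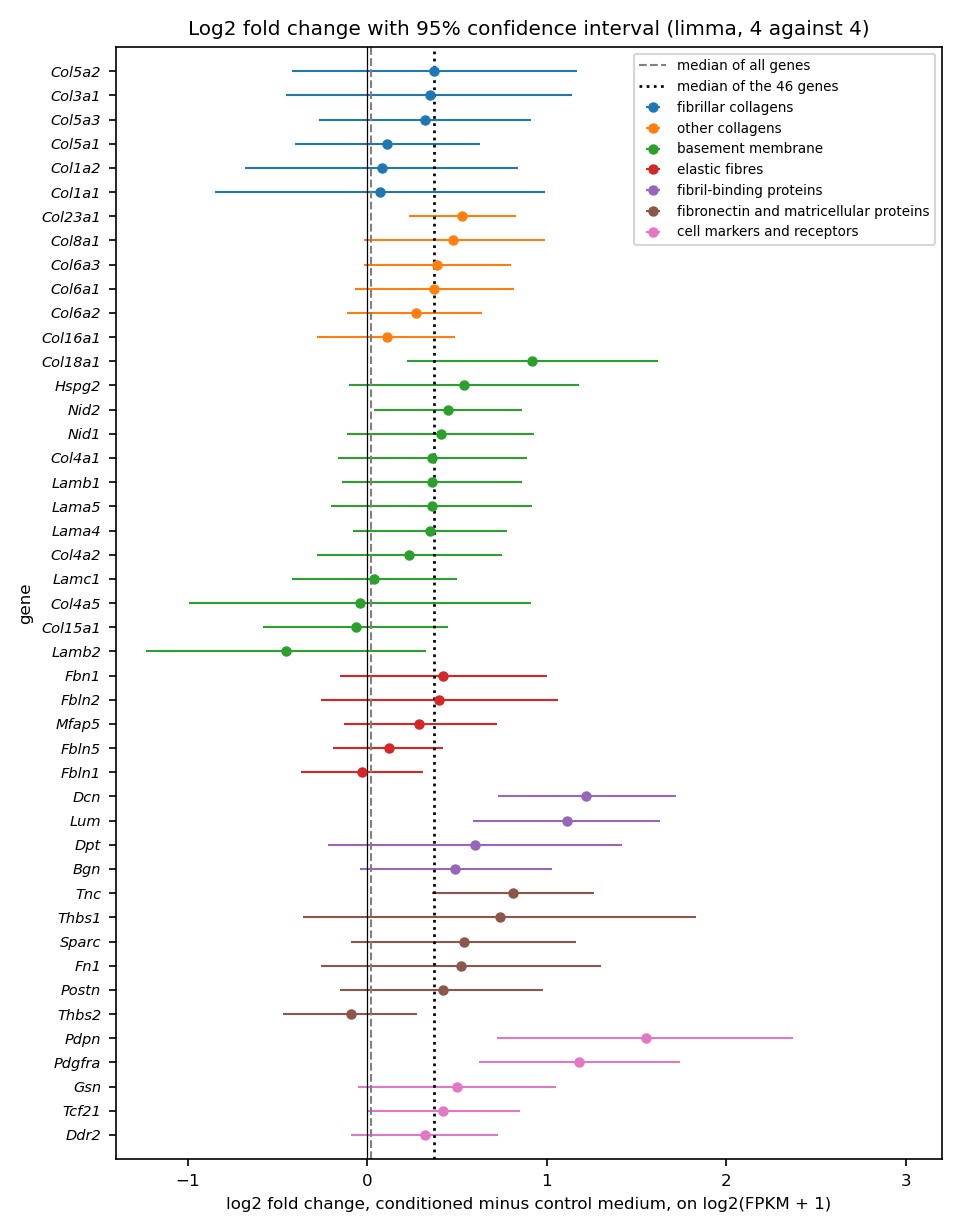
Log2 fold change (horizontal axis, conditioned minus control on log2(FPKM + 1)) of 45 of the 46 genes with the 95% confidence interval from limma, coloured by role. The dashed line gives the median of all genes (0.02) and the dotted line that of the 46 genes (0.37). Most intervals span 0, and 5 genes have negative point estimates, of which Lamb2 (-0.45) is the lowest.

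Sparc, which encodes osteonectin, a collagen-binding matricellular protein made by endothelial cells and fibroblasts, was the most abundant of the 46 genes. It measured 111, 61.7, 104 and 56.2 FPKM in control and 108, 95.6, 94.0 and 187 FPKM in conditioned medium. Conditioned-medium replicates 1 to 3 lay above control replicates 2 and 4 and below control replicate 1, and replicate 4 lay above all. This gave a log2 fold change of 0.54 (SE 0.29, adjusted p = 0.591). Tnc encodes tenascin-C, which is scarce in healthy adult myocardium and appears in remodeling and inflammation. It measured 14.2, 9.36, 16.9 and 12.7 FPKM in control and 20.7, 21.6, 22.3 and 30.7 FPKM in conditioned medium, and the groups did not overlap. The means were 13.3 ± 3.16 and 23.8 ± 4.61 FPKM (SD, n = 4 each), with a log2 fold change of 0.81 (SE 0.21, 95% confidence interval 0.36 to 1.26, limma adjusted p = 0.192). Control replicate 1 was not the highest control for Tnc or for Pdpn, in contrast to Dcn, Lum, Pdgfra and Col23a1.

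Thbs1 encodes thrombospondin-1, an activator of latent TGF-beta. It measured 40.1, 5.99, 10.9 and 7.11 FPKM in control and 31.4, 24.5, 22.4 and 10.1 FPKM in conditioned medium. The highest value was in control replicate 1, and the other controls overlapped conditioned-medium replicate 4 only. Thbs1 thus had a log2 fold change of 0.74 (SE 0.50, adjusted p = 0.697), and without control replicates 2 and 4 it was -0.04. Thbs2, its relative, measured 1.79, 0.746, 1.12 and 1.41 FPKM in control and 1.52, 1.04, 1.09 and 0.788 FPKM in conditioned medium, with a log2 fold change of -0.09 (SE 0.17, adjusted p = 0.878). Fn1, for fibronectin, ranged from 2.60 to 10.6 FPKM in control and from 4.94 to 8.97 FPKM in conditioned medium. Postn encodes periostin, a marker of activated fibroblasts in the mouse heart. It ranged from 2.50 to 5.93 FPKM in control and from 5.41 to 5.59 FPKM in conditioned-medium replicates 1 to 3, with 10.3 FPKM in replicate 4.

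The elastic fibre genes did not pass the test either. Fbln2, for fibulin-2, measured 18.9, 4.69, 9.95 and 9.20 FPKM in control and 12.7, 12.5, 14.4 and 12.5 FPKM in conditioned medium, with a log2 fold change of 0.40 (SE 0.30, adjusted p = 0.721). Fbn1, which encodes fibrillin-1, the core of microfibrils, measured 5.54, 1.93, 3.46 and 2.01 FPKM in control and 5.01, 5.05, 4.85 and 2.89 FPKM in conditioned medium, with a log2 fold change of 0.42 (SE 0.26, adjusted p = 0.662). In both genes control replicate 1 was the highest library of all. Fbln1 ranged from 2.17 to 3.17 FPKM over the 8 libraries, and Fbln5 and Mfap5 stayed below 1 FPKM apart from Mfap5 in conditioned-medium replicate 4 (1.76 FPKM).

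The controls differed among themselves more than the conditioned-medium libraries did. The SD of log2(FPKM + 1) was larger in control than in conditioned medium for 38 of the 46 genes, with a median SD of 0.45 and 0.22, whereas over all genes the medians were 0.22 and 0.26. Among conditioned-medium replicates 1 to 3 the median SD of the 46 genes was 0.09, equal to that of all genes. Control replicate 2 was the lowest library for 21 genes and control replicate 4 for 18, whereas control replicate 1 was the highest for 15 and conditioned-medium replicate 4 for 17. The mean deviation of the 46 genes from their means was 0.26, -0.56, -0.01 and -0.50 in control replicates 1 to 4 and 0.22, 0.21, 0.24 and 0.14 in conditioned medium. On this mean, control replicate 1 lay above all conditioned-medium libraries.

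**Figure D4:**
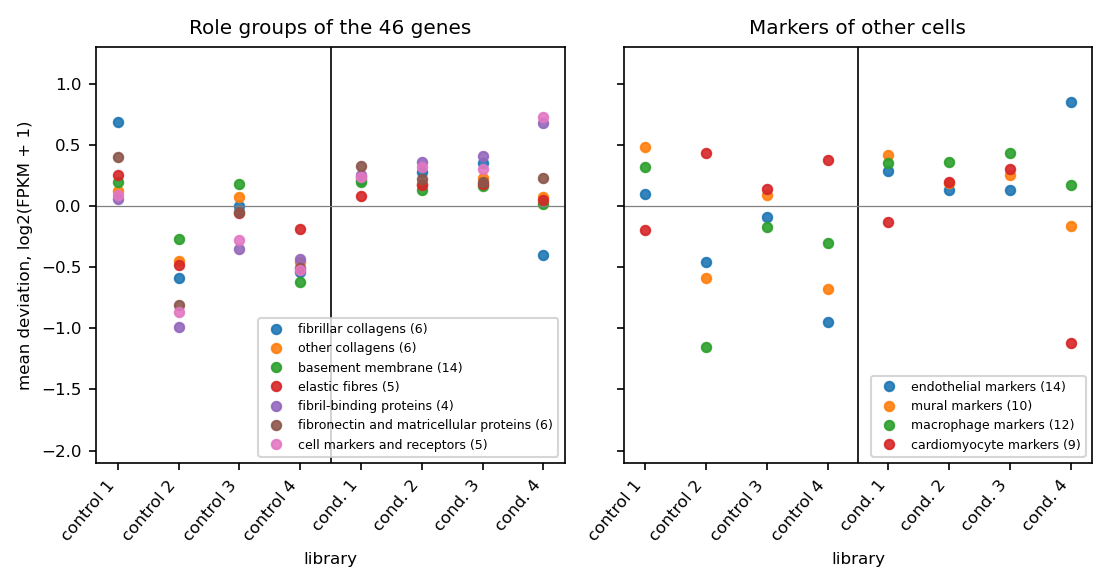
Mean deviation of log2(FPKM + 1) from the mean of each gene (vertical axis) in each library (horizontal axis), for the role groups of the 46 genes (left) and for markers of other cells (right), with the number of genes in brackets. Control replicates 2 and 4 lie below 0 for every role group and for endothelial, mural and macrophage markers, and conditioned-medium replicate 4 has the highest endothelial (0.85) and the lowest cardiomyocyte value (-1.12).

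Markers of other non-myocytes were also higher on average in conditioned medium. All 14 endothelial markers had a log2 fold change above 0 (median 0.71, against 53.9% of all genes above 0), with a summed level of 131 to 286 FPKM in control and 291 to 521 FPKM in conditioned medium, and 0 passed the test. At an unadjusted p under 0.05 with limma, 11 of the 14 were higher and 0 lower, against 8.78% and 0.845% of all genes. In 7 of the 14 all 4 conditioned-medium libraries lay above all 4 controls, against 5.08% of all genes. All 12 entries for macrophage markers, 2 of them for Itgam, were also above 0 (median 0.55), with a summed level of 24.4 to 182 FPKM in control, lowest in replicate 2, and 159 to 174 FPKM in conditioned medium. Cd163, Fcgr1 and Ptprc had no row. Of the mural markers, 8 of 10 were above 0 (median 0.50), with overlapping sums of 126 to 199 and 98.1 to 164 FPKM. Acta2 was the largest single part of these sums in every library (90.5 to 141 and 40.5 to 96.3 FPKM). Their overlap therefore does not describe the other mural markers. In 0 of the macrophage entries and 0 of the mural markers did all 4 conditioned-medium libraries lie above all 4 controls. The 4 measured epicardial and mesothelial markers summed to 0.560 to 7.19 FPKM in control and 4.27 to 13.6 FPKM in conditioned medium, Wt1 and Upk3b having no row, and none of the 4 Schwann cell markers was in the table. The cardiomyocyte markers had a median of -0.40, with 1 of 9 above 0. Whether these levels account for part of the differences in matrix genes was not tested.

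Without control replicates 2 and 4, the median log2 fold change of the 46 genes came close to 0. After their removal the change was above 0 for 25 of 46 genes, against 33.9% of all genes, with a median of 0.02, against -0.09 over all genes. None passed the test with limma, where 0.0176% of all genes rose, and 6 were higher at an unadjusted p under 0.05, against 1.94% of all genes. The 6 genes whose groups did not overlap (Dcn, Lum, Pdgfra, Pdpn, Tnc and Col23a1) remain so by construction when controls are left out, with log2 fold changes between 0.42 and 1.38. These 6 were 13.0% of the 46 genes, against 5.83% of all genes with all conditioned-medium libraries above the remaining 2 controls. Col23a1 gives this count and the similar one below no support, because it was listed through its conditioned-medium mean alone. No further gene joined them. In 4 genes (Col15a1, Col4a5, Lamb2 and Lamc1) all conditioned-medium libraries lay below, against 8.29% of all genes. When conditioned-medium replicate 4 was left out as well, 24 of the 46 genes were above 0, against 54.0% of all genes, and the median was 0.01 over the 46 genes as over all genes, with Pdpn alone passing the test, against 0.493% of all genes that rose. All 3 remaining conditioned-medium libraries lay above both controls in 8 of the 46 genes, which include the 6 by construction and Col6a3, against 12.2% of all genes, and below in 7, against 9.01%.

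**Figure D5:**
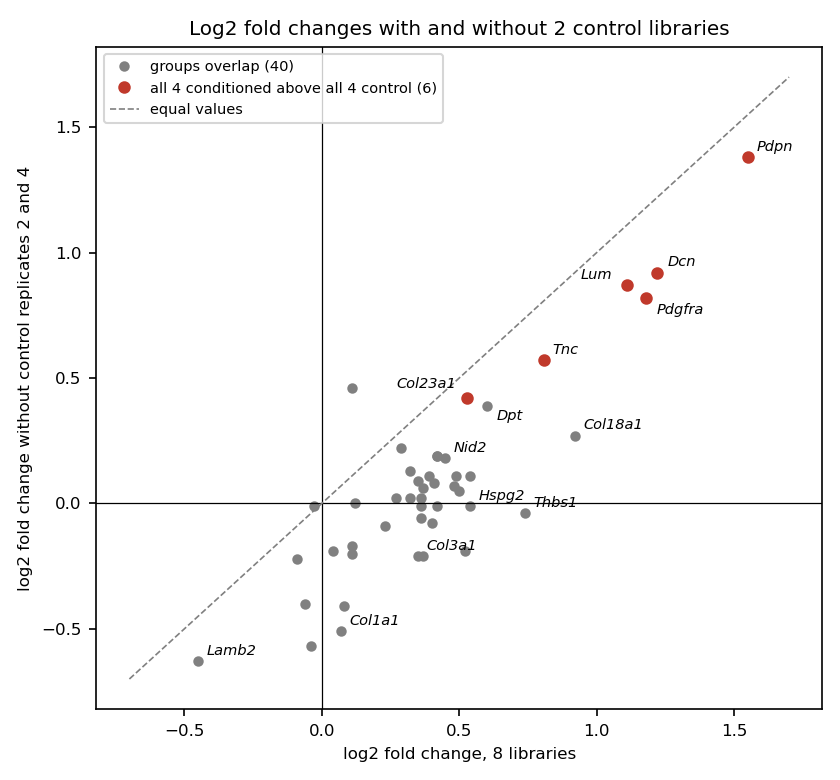
Log2 fold change of each of the 46 genes with all 8 libraries (horizontal axis) and without control replicates 2 and 4 (vertical axis), with a dashed line of equal values. Nearly all genes lie below the line, and the 6 genes whose groups did not overlap (red), which are above 0 on both axes by construction, lie between 0.42 and 1.38 on the vertical axis.

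Transcript levels added little on isoforms. The 46 genes had 86 transcripts in the transcript table. Of the 24 genes with more than 1, the transcript with the highest FPKM differed between libraries in 14 and between controls in 12, so that splits between similar transcripts were not read. In Sparc, for example, transcript Sparc-202 led in control replicates 1 and 2 (170 and 91.5 FPKM) and Sparc-201 in control replicates 3 and 4 (151 and 82.0 FPKM). For Dcn, Pdpn and Tnc 1 transcript led in every library. Dcn-201 measured 22.2, 8.17, 14.8 and 14.1 FPKM in control and 32.4, 39.4, 40.0 and 42.5 FPKM in conditioned medium, with the same separation as the gene. Pdpn-201 measured 7.96 to 14.1 FPKM and 25.1 to 94.9 FPKM, and Tnc-204 9.17 to 17.5 FPKM and 21.1 to 30.4 FPKM.

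Other genes of matrix assembly and signaling were examined in 5 lists, in which none rose or fell with limma. The shares of all genes to set beside their counts are 53.9% above 0, 8.78% higher and 0.845% lower at an unadjusted p under 0.05. Of 23 measured genes of collagen processing and cross-linking, 18 had a log2 fold change above 0 (median 0.22), and 2 were higher and 0 lower at an unadjusted p under 0.05. The smallest p belonged to Loxl1, a lysyl oxidase that cross-links elastin (log2 fold change 0.60, adjusted p = 0.408). Of 20 genes for TGF-beta ligands, receptors and targets, 15 were above 0 (median 0.14), 5 were higher and 0 lower unadjusted, and the smallest p was that of Smad6, an inhibitor in the BMP branch of this pathway (0.78, adjusted p = 0.383). Of 12 integrin subunits, through which cells bind matrix, 7 were above 0 (median 0.06), 1 was higher and 0 lower unadjusted, with Itgb3, the beta chain of the vitronectin receptor, first by p (0.72, adjusted p = 0.372).

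Of 22 other matrix glycoproteins and proteoglycans, 18 were above 0 (median 0.41), and 7 were higher and 0 lower unadjusted, beside 53.9%, 8.78% and 0.845% of all genes. Agrn, for agrin, a heparan sulfate proteoglycan of basement membranes, had the smallest p (0.94, adjusted p = 0.176). Of 17 other markers of fibroblasts and their activation, 14 were above 0 (median 0.43), and 8 were higher and 1 lower unadjusted, beside the same shares. Ly6a, a surface protein of progenitor-like stromal cells and of endothelium that interferon induces, measured 31.9, 20.3, 24.5 and 8.86 FPKM in control and 71.4, 49.4, 39.7 and 70.8 FPKM in conditioned medium (1.48, adjusted p = 0.123). Acta2, a smooth muscle actin listed here under both fibroblast activation and mural markers, was the 1 that was lower (-0.61, adjusted p = 0.516). It measured 90.5, 93.6, 141 and 117 FPKM in control and 70.4, 92.3, 96.3 and 40.5 FPKM in conditioned medium, and its groups overlapped. In control it did not follow the mural markers Myh11 (4.56, 0.364, 1.10 and 0.316 FPKM) and Tagln (35.5, 3.45, 5.63 and 5.69 FPKM). In each group Acta2 was lowest where the cardiomyocyte sum was lowest (control replicate 1 and conditioned-medium replicate 4). Myh11 (2.24 FPKM) and Tagln (4.79 FPKM) were also at their conditioned-medium lowest in that replicate 4. The cell source of Acta2 was not tested.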

How the data were processed

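RNA sequencing of 4 control and 4 conditioned-medium libraries of cultured cardiomyocytes was used. The authors trimmed reads with cutadapt, aligned them to GRCm38 with Hisat2, quantified transcripts with StringTie, and took FPKM from Ballgown, which they deposited by gene and by transcript. Tool versions and annotation release: not given in the sources used here. The deposited gene table was limited to protein-coding genes whose mean reached 0.5 FPKM in 1 group or both, and 1 entry is not reported here. The depth of each library is unknown, because FPKM carry no read totals and whole reads could not be recovered from the low values, so the only measure of precision is how far libraries of a group differ.

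Groups were taken from the culture condition in the labels. Differences were tested across all 11367 genes with limma 3.58.1 (R 4.3.3), in which log2(FPKM + 1) was modeled on medium with trended, moderated variances, two-sided p-values and Benjamini-Hochberg adjustment over all genes. The script was first tested on simulated data. "Rose" or "fell" means an adjusted p under 0.05. The pseudocount of 1 understates fold changes of genes near or below 1 FPKM. Means are given ± SD.

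The genes, the lists and the markers were chosen with earlier results of these data known. Genes described in full were those at an unadjusted or adjusted p under 0.05, Dcn, Col1a1 and Pdgfra, the 2 most abundant of each role, and the 3 with the lowest log2 fold change. Levels of other genes are given by range. In the companion lists, genes past the test or with the smallest p were named, and Acta2, named because it was the 1 gene lower in its list, was chosen after its values had been seen. Alternatives were a pseudocount of 0.1, a minimum mean of 1 FPKM, 3 other scalings (equal totals over nuclear-encoded genes, median of ratios and quantiles), an F test for each gene that includes library size, after Ballgown, array weights, transcript FPKM summed per gene, a block on replicate number, and omission of each library. Control replicates 2 and 4, without or with conditioned-medium replicate 4, were also left out after the data had been seen. Of the 46 genes, 43 met the stricter minimum. The values of 1 of the 46 genes are not reported here, and it stays in the counts and medians. Gene positions are those of the table, and 44 of the 46 genes had the same identifier and position in GENCODE M21. Promoter windows are from RefSeq.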

Additional observations from a re-analysis of the deposited data

Results flagged for a closer look

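In groups of 4 libraries, the highest or lowest value was compared with the others by Dixon's ratio, the gap to the nearest value over the range. Of 46 groups (23 genes in 2 groups), 4 were above its 95% critical value, and chance gives about 1 in 20. Conditioned-medium replicate 4 was the outlying library in 3 of the 4. In that library Pdpn was at 96.0 FPKM, against 25.5 to 28.0 FPKM in the other conditioned-medium libraries, Lamb2 was at 12.6 FPKM, against 42.6 to 44.7 FPKM, and Fbn1 was at 2.89 FPKM, against 4.85 to 5.05 FPKM. Fbln2 was at 14.4 FPKM in conditioned-medium replicate 3, against 12.5 to 12.7 FPKM.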

How the results depend on the processing

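The number of the 46 genes that rose was 1. It was 0 with a pseudocount of 0.1 (46 of all genes), with a replicate block (69) and with transcript FPKM summed per gene (44). It was also 0 without control replicates 2 and 4, where 0.0176% of all genes rose. With the per-gene F test it was 0 as well, but there 0 of all genes rose, which says nothing about this set. When 1 library was left out it was 0 to 4 (31 to 110 of all genes). With array weights it was 12, where 7.76% of all genes rose. It stayed at 1 under the other settings, but the gene was Lum rather than Dcn under each of the 3 scalings and Pdpn without control replicates 2 and 4 and conditioned-medium replicate 4. Without conditioned-medium replicate 4 alone the genes were Lum and Pdpn. None fell under any alternative run. The median log2 fold change of the 46 genes was 0.27 to 0.52 when 1 library was left out, and 0.02 and 0.01 without control replicates 2 and 4, with and without conditioned-medium replicate 4.

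Whether the replicate numbers of the 2 groups pair the libraries is unknown. Deviations from the group means correlated over 0.1 in 1 of 4 same-numbered pairs (-0.176 to 0.259, against -0.307 to 0.228 for other numbers). With 4 libraries in a group this cannot settle the question. With a replicate block, 0 of the 46 genes rose and Dcn had an adjusted p of 0.0783.

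No gene whose direction turned had passed the test with all libraries. Of the 46 genes, 16 changed sign without control replicates 2 and 4 (the largest at 0.74 with all libraries) and 19 when conditioned-medium replicate 4 was left out as well (the largest at 0.60). Col1a1 was at -0.03 with quantile normalization, -0.32 with the F test, -0.51 without control replicates 2 and 4 and -0.14 without these and conditioned-medium replicate 4, and ranged from -0.15 to 0.46 when 1 library was left out. Col15a1 was at 0.04 with equal nuclear totals and 0.03 with summed transcripts, and ranged from -0.28 to 0.14. Thbs2 was at 0.05 with array weights and ranged from -0.21 to 0.01. Col4a2 was at -0.01 with array weights. Without control replicates 2 and 4, and then also without conditioned-medium replicate 4, Col4a2 was at -0.09 and -0.17, Col4a1 at -0.01 and -0.12, Col5a2 at -0.21 and -0.03, and Fbln2 at -0.08 and -0.06. Fn1 was at -0.19 and -0.01. Hspg2 (-0.01), Fbn1 (-0.01) and Thbs1 (-0.04) turned in the former and Gsn (-0.04) and Sparc (-0.12) in the latter. The cause was not tested.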
